A study of Mus musculus with 5 samples.

Results

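Thick ascending limb (TAL) cells were selected on the counts of 2 genes in Drop-seq libraries of mouse kidney, a droplet method that reads the 3′ ends of mRNAs from single cells and counts molecules by their unique molecular identifiers (UMIs). A cell was taken as TAL where Umod and Slc12a1 together held at least 3 UMIs and at least 1% of its UMIs, among barcodes with at least 200 detected genes. This rule took 402 of 12121 cells (3.32%), with 184385 UMIs in all. The 5 libraries came from kidneys of wild-type C56BL/6N mice (strain as spelled in the labels): 1 library for each of 3 microdissected regions (cortex, outer medulla and inner medulla) and 2 whole-kidney libraries, numbered 1 and 2. All cells were released with a cold-active protease and fixed in methanol before encapsulation, per the labels. The labels give no age, no treatment and no number of animals, so the difference between the 2 whole-kidney libraries may be technical.

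The TAL is the segment of the loop of Henle that carries salt out of the tubule without water. The sodium-potassium-chloride cotransporter NKCC2, encoded by Slc12a1, brings salt into the cell. Potassium returns to the lumen through ROMK (Kcnj1), and the sodium pump, whose beta subunit is encoded by Atp1b1, drives the whole. Calcium and magnesium cross between the cells through pores built of claudins, and the cells secrete uromodulin (Umod), the most abundant protein of normal urine, and epidermal growth factor (Egf). The limb begins in the outer medulla and ends in the cortex, and its medullary and cortical stretches are known to differ in their claudins.

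The promoters of both selecting genes are shown because every cell below was chosen by their transcripts, and both annotated starts of Cldn10 are shown because 3′ counts cannot tell their transcripts apart. Each window is 300 bases long, from RefSeq on GRCm38.p6, and runs from 250 bases before to 50 after the annotated start; the deposited counts carry no coordinates, and the submitters' processing notes name mm9. Capitals mark GTTAAT or its reverse complement ATTAAC, the half-site letters of the HNF1 factors, searched on both strands.
Umod, chr7:119479213-119479512, minus strand: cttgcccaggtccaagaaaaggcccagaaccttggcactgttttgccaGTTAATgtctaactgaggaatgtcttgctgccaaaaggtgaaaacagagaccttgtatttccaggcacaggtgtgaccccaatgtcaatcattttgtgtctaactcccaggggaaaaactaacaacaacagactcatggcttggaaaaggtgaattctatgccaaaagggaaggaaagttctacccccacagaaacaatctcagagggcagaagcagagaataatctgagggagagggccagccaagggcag
Slc12a1, chr2:125152350-125152649, plus strand: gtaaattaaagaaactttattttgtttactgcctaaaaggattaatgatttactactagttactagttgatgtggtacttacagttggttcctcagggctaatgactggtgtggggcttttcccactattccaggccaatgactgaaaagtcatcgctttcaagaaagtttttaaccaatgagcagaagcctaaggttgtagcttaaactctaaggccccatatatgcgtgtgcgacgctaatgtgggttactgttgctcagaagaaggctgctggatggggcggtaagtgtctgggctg
Cldn10 upstream start, chr14:118787621-118787920, plus strand: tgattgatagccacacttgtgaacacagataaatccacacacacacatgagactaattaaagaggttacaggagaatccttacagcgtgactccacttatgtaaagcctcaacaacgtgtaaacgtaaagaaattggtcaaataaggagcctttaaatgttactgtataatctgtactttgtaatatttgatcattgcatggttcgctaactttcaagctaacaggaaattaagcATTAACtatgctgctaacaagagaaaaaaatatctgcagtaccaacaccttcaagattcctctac
Cldn10 downstream start, chr14:118854700-118854999, plus strand: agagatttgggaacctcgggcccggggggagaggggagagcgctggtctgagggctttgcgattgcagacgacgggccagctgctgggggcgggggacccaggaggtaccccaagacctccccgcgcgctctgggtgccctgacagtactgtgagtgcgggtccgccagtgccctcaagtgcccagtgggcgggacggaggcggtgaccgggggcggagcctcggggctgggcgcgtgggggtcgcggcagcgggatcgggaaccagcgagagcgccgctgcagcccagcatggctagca
The half-site stands once in the Umod window, at position -202 from the start, and once in the upstream Cldn10 window, at -15. It is absent from the Slc12a1 window, the downstream Cldn10 window and the Cldn16 window. Of 32851 promoter windows of the same length, 7.10% hold it, and 4.72% hold AAGGTCA or its reverse complement TGACCTT, the half-site letters of the oestrogen-related receptors, which none of these windows contains.

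TAL cells made up 62 of 3072 cells of the cortex (2.02%, 95% Clopper-Pearson interval 1.55 to 2.58), 185 of 2428 of the outer medulla (7.62%, 6.60 to 8.75), 64 of 898 of the inner medulla (7.13%, 5.53 to 9.01), 43 of 2418 of whole kidney 1 (1.78%, 1.29 to 2.39) and 48 of 3305 of whole kidney 2 (1.45%, 1.07 to 1.92). The share was high in both medullary libraries and low in the others, and the intervals of the medullary libraries did not meet those of the other libraries. Intervals here and below cover counting error only. Each region is a single library, so regions were not tested against each other. The share depends on the gate: with at least 5 UMIs and 2%, it was 0.781% in cortex, 3.67% in the outer medulla, 2.34% in the inner medulla, 0.786% in whole-kidney library 1 and 0.605% in whole-kidney library 2. The TAL is not a segment of the inner medulla, and carry-over of neighbouring tissue in the dissection was not tested; the same library held 97 cells with at least 3% of UMIs in proximal tubule markers.

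The median TAL cell held 325 to 431 UMIs, against 450 to 518 for the other cells of the same library. After every cell was thinned to 300 UMIs, which left out 108 TAL cells, the median TAL cell showed 234 to 241 genes and the median other cell 226 to 247. At the edge of the rule, 26 TAL cells held exactly 3 UMIs of the 2 genes and 129 lay under 1.5%; just outside, 193 cells had 3 or more such UMIs at under 1%, 69 of them at 0.75% or more. Free RNA was present: the 19 proximal tubule markers took 0.172% of TAL UMIs in the inner medulla and 1.42% to 2.01% in the other libraries, against 1.66% and 11.5% to 12.7% in the other cells. The free share of TAL UMIs estimated from these markers was 9.12% to 20.9%. Of the TAL cells, 3 also passed a gate for distal convoluted tubule cells, none a gate for principal cells, and none shared its barcode with a cell of another library.

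The label was checked against Egf and Cldn10, which the rule did not read. Levels are given as CPM, the UMIs of a gene per 1000000 UMIs of the summed cells. Umod stood at 15332 CPM in cortical TAL cells, 14086 in the outer medulla, 8868 in the inner medulla, 14928 in whole-kidney library 1 and 14618 in whole-kidney library 2, and at 132 to 402 in the other cells. Slc12a1 stood at 5388, 8788, 8595, 8299 and 6193 in the same order, and at 14.3 to 339 in the other cells. Both values were set by the rule and are given as a description. Egf was found in 91.9% of TAL cells in cortex, 60.0% in the outer medulla, 29.7% in the inner medulla, 83.7% in whole-kidney library 1 and 77.1% in whole-kidney library 2, against 0 to 3.32% of proximal tubule cells, which should lack it and had median depths of 450 to 537 UMIs. Egf reached 6835, 3656, 938, 6583 and 5966 CPM in TAL cells and 80.8 to 133 in the other cells. The TAL sum of every library thus carried the marker, with the inner medulla lowest. Cldn10 was found in 24.2% of TAL and 17.8% of proximal tubule cells in cortex, 49.2% and 18.9% in the outer medulla, and 67.2% and 13.4% in the inner medulla. These shares were 27.9% and 27.3% in whole-kidney library 1 and 22.9% and 21.1% in library 2, so they told the 2 classes little apart there.

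**Figure D1:**
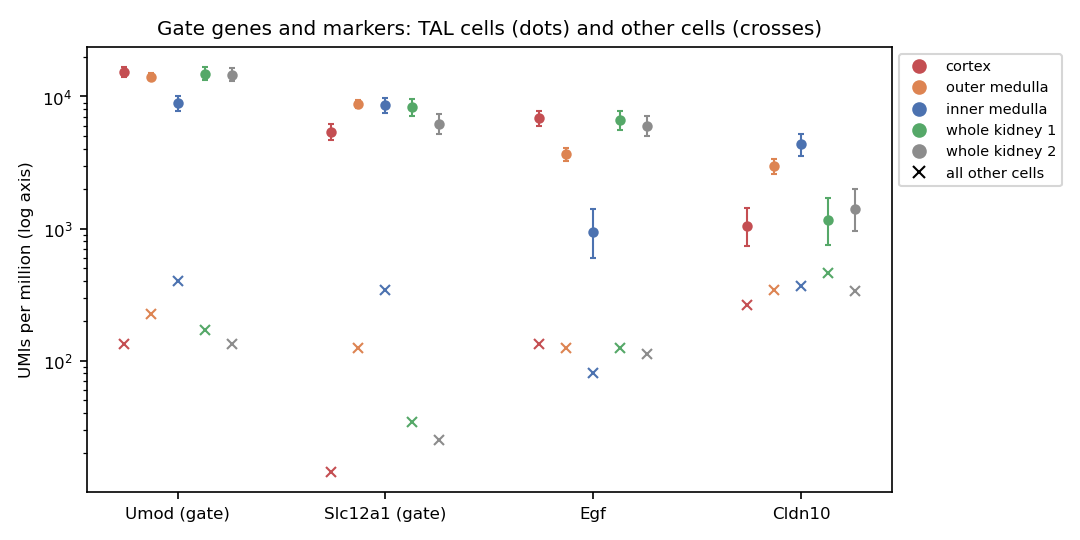
CPM (log axis) of the selecting genes Umod and Slc12a1 and of the markers Egf and Cldn10, in TAL cells (dots, bars are 95% Poisson intervals) and in all other cells (crosses), by library. TAL cells lie above the other cells for all 4 genes in all 5 libraries; Egf falls from 6835 in cortex to 938 in the inner medulla while Cldn10 goes from 1045 to 4336.

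TAL cells were first compared with all other cells. Counts were summed per library and class and tested with edgeR's quasi-likelihood test, with library as a covariate, over 5 libraries, with Umod and Slc12a1 removed before the fit. A gene was called at an adjusted p (Benjamini-Hochberg) below 0.05 and a log2 fold change of at least 1 in size. Of 4223 genes tested, 256 were higher (6.06%) and 492 lower (11.7%) in TAL cells, with a median log2 fold change over all genes of -0.13. Scaling by total counts in place of TMM moved all genes by a median of 0.26 and the calls to 345 higher and 370 lower, so the higher share went from 34.2% to 48.3%. Most other cells were proximal tubule cells, and without them 83 genes were higher and 115 lower of 2704 tested; without the inner medulla 833 genes were lower, of 7124 tested. Since the cells were chosen by co-expressed genes, the test says how uniformly a gene separated the gated cells over the libraries.

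The 12 genes with the largest differences among those with at least 50 UMIs include the following. Cldn19, the partner of claudin-16 in the divalent cation pore, was 5.56 ± 0.55 (SE) higher on the log2 scale (adjusted p = 6.4e-13), at 348, 462, 78.1, 232 and 182 CPM in cortex, outer medulla, inner medulla, whole kidney 1 and whole kidney 2 against 0.397 to 36.4 in other cells. Tmem207, a membrane protein gene, was 5.25 ± 0.45 higher, Egf 4.97 ± 0.26, Ppp1r1b (DARPP-32, an inhibitor of protein phosphatase 1) 4.88 ± 0.39 and Gpx6, a glutathione peroxidase, 4.60 ± 0.27. Sostdc1, a secreted antagonist of BMP and WNT signals, was 4.51 ± 0.23 higher and even over the libraries, at 2252, 1911, 2500, 3013 and 2323 CPM. Slc5a3, the sodium-coupled myo-inositol transporter, was 4.25 ± 0.30 higher, Mfsd4a 3.99 ± 0.27, Ckb, the brain-type creatine kinase, 3.79 ± 0.25, and Kng2, a kininogen, 3.71 ± 0.23. Wfdc15b, a gene of the whey acidic protein family, was 4.01 ± 0.25 higher. Its level was 11874, 12149, 8282, 10478 and 10201 CPM against 360 to 1115 in the other cells, so the groups were far apart in every library. Each of these genes was higher in all 5 libraries and stayed called under every alternative that tested it.

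The list counts that follow stand beside 6.06% higher and 11.7% lower over all genes tested. Among the salt channels, 3 of the 4 tested members of the list of 14 were higher and none lower. Kcnj1 (ROMK) stood at 590, 924, 1328, 834 and 638 CPM in cortex, outer medulla, inner medulla, whole kidney 1 and whole kidney 2, against 75.8 to 161 in other cells, and was 2.67 ± 0.25 higher (edgeR adjusted p = 9.5e-14). The potassium channel subunit Kcnj16 did not pass (0.11 ± 0.25). Of 5 tested genes of the sodium pump, 2 were higher and 1 lower. Atp1b1, the beta subunit, was 1.55 ± 0.21 higher, at 9140 to 12502 CPM against 2760 to 3903. The pump regulator Fxyd2 did not pass (0.26 ± 0.25), and Fxyd4, the regulator of the collecting duct, was lower, with a log2 fold change of -4.50 ± 0.43. The median of the 4 channels was 2.59 and that of 5 pump genes 0.85, beside -0.13 over all genes.

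Of 7 tested tight junction genes, 4 were higher and 1 lower. Besides Cldn19, these were Cldn10, the claudin of the sodium-selective pore, at 2.25 ± 0.25, the junction protein Ocln (occludin) at 2.81 ± 0.51 and Cldn7 at 1.47 ± 0.53, the last in 4 of 5 libraries. Cldn2, the leaky claudin of the proximal tubule, was lower at -2.76 ± 0.48. Cldn8, a claudin of the collecting duct, did not pass (-0.03 ± 0.40). Cldn16, with 66 UMIs, was under the filter on low counts; it stood at 241, 385, 0, 325 and 911 CPM in TAL cells against 1.40 to 6.06 in other cells.

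Of 8 tested members of the list of receptors and signalling genes, 5 were higher and none lower, 3 of them receptors. Ptger3, the EP3 receptor for prostaglandin E2, was 4.64 ± 0.42 higher, Casr, the calcium-sensing receptor, 4.28 ± 0.48, and Gcgr, the glucagon receptor, 3.95 ± 0.49. Rgs2, a brake on G-protein signals, was 2.22 ± 0.50 higher and the adenylyl cyclase Adcy6 1.84 ± 0.62. Pth1r, the parathyroid hormone receptor, which proximal tubule cells also express, did not pass (-0.02 ± 0.27). Of the kinases that switch NKCC2 on, Wnk4 was 2.45 ± 0.43 higher, Stk39 (SPAK) 1.68 ± 0.46 and Wnk1 1.40 ± 0.28, so 3 of 6 tested members of that list were higher and none lower. These genes rest on few molecules, 29 to 32 UMIs in all TAL cells for Casr, Stk39, Gcgr and Wnk4. Adcy6 was not higher in the inner medulla, at 0.879-fold of the other cells with a wide interval (0.0213 to 5.44).

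Among secreted proteins, 5 of 9 tested were higher: Egf and Sostdc1 as above, Wfdc2 by 2.54 ± 0.31, Tmem52b by 1.66 ± 0.27 and Spp1, osteopontin, by 1.54 ± 0.21, at 1992 to 4080 CPM against 831 to 1086. Klk1, tissue kallikrein, had an adjusted p of 0.0057 in edgeR's test at a log2 fold change of only 0.77 ± 0.22. Clu, clusterin, did not pass (-0.11 ± 0.32). Of 13 tested transcription regulators, 7 were higher and 1 lower. Tfap2b was 3.68 ± 0.36 higher, Irx1 3.35 ± 0.56, Foxq1 2.81 ± 0.60, Sim1 2.44 ± 0.51, Pou3f3 2.02 ± 0.45 and Mecom 1.85 ± 0.55. Not all of the genes in this paragraph were higher in every library. In the inner medulla the CPM of TAL over other cells was 0.145-fold for Foxq1, 0.414-fold for Wfdc2 and 0.372-fold for Mecom. The interval of Mecom there included 1 (0.00924 to 2.17). Ppargc1a (PGC-1α), the coactivator of mitochondrial biogenesis, was 2.33 ± 0.34 higher. Hnf4a, a factor of the proximal tubule, was lower at -2.59 ± 0.52.

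Energy genes differed by less. None of the 32 nuclear-encoded genes of oxidative phosphorylation was called, with a median log2 fold change of 0.44 beside -0.13 over all genes; 7 had an adjusted p below 0.05 at smaller increases. Since the scaling moved all genes by 0.26, the excess over the median gene is the part to read. Of 16 genes of the citric acid cycle and mitochondrial biogenesis, 5 were higher: Ppargc1a, Idh2 at 1.33 ± 0.23, Idh3a at 1.26 ± 0.27, Got1 at 1.20 ± 0.41 and Fh1 at 1.05 ± 0.27. Of 12 tested genes of glycolysis and lactate, 4 were higher and 1 lower. Ckb led, followed by Hk1 (hexokinase 1) at 2.50 ± 0.53, Pkm at 1.59 ± 0.31 and Ckmt1 at 1.58 ± 0.47. The lactate dehydrogenase subunits parted: Ldha was lower at -1.36 ± 0.29 and Ldhb, at 0.92 ± 0.22, lay under the fold threshold. The files list no mitochondrially encoded gene.

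Genes lower in TAL cells included markers of the proximal tubule and the collecting duct. All 19 proximal tubule markers were lower, with a median log2 fold change of -3.14, and 4 of the 5 tested principal cell markers. Aqp3, a water channel of principal cells, had 0 UMIs in TAL cells against 2588 elsewhere, at least 17.0-fold lower when 3 counts over the class are taken as the floor. Slc23a1, a vitamin C transporter, and Cadm1, an adhesion molecule, also had 0 UMIs and were at least 7.74-fold and 3.03-fold lower. Fmo2, a flavin monooxygenase, was lower at -4.86 ± 0.60 and Aqp2, the vasopressin-regulated water channel, at -4.40 ± 0.37.

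Markers of other cells were summed in TAL cells as a check. The principal cell list reached 0 to 1016 CPM against 692 to 23130 in the other cells, the endothelial list 26.8 to 185 against 37.5 to 477, and the podocyte list 0 to 64.1 against 12.1 to 63.1; fibroblast markers were at 0 in 4 of 5 libraries. Intercalated cell markers stood at 80.4 to 182 against 320 to 733, macrophage markers at 0 to 185 against 118 to 387, and the 2 listed erythroid markers at 0 to 38.5 outside the inner medulla, where they reached 1172 in TAL cells against 166 in the others. There, 1 TAL cell held 20 of the 27 UMIs of Hbb-b2, and the list had 30 UMIs in all. Among these lists of cells outside the tubule, TAL cells otherwise stood above the other cells of the same library in a few sums of 1 to 5 UMIs: endothelial markers in whole-kidney library 1 (185 against 37.5) and library 2 (45.5 against 43.6), podocyte markers in the outer medulla (64.1 against 47.8), erythroid markers there (38.5 against 22.7), and macrophage (185 against 168) and fibroblast markers (46.4 against 26.5) in whole-kidney library 1. The connecting tubule list, which includes Klk1, was above the other cells in every library, from 469 against 319 in the inner medulla to 10201 against 5081 in whole-kidney library 2. Of its 3 tested genes, 0 were called higher and 1 lower. Thin limb markers were above the other cells in all libraries but the inner medulla (1797 against 2432), at 881 to 1450 against 607 to 818. The distal convoluted tubule list was higher, at 4323 to 7130 against 624 to 1291, with 3 of its 5 tested genes called. Most of that sum was Ppp1r1a, at 3662 to 4493 CPM. Slc12a3, the defining cotransporter of that segment, stood at 751, 154, 0, 649 and 228, found in 9, 7, 0, 4 and 4 cells, and Pvalb (parvalbumin) at 1153, 38.5, 0, 510 and 410, found in 10, 1, 0, 5 and 5 cells. The part of mixed droplets in these values was not tested, and no doublet caller was run. Without cells that passed 2 gates and without the 5% of cells with most UMIs, 219 genes were higher and 446 lower of 3690 tested. Nos1 and Ptgs2, markers of the macula densa, had 1 UMI each in all TAL cells.

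**Figure D2:**
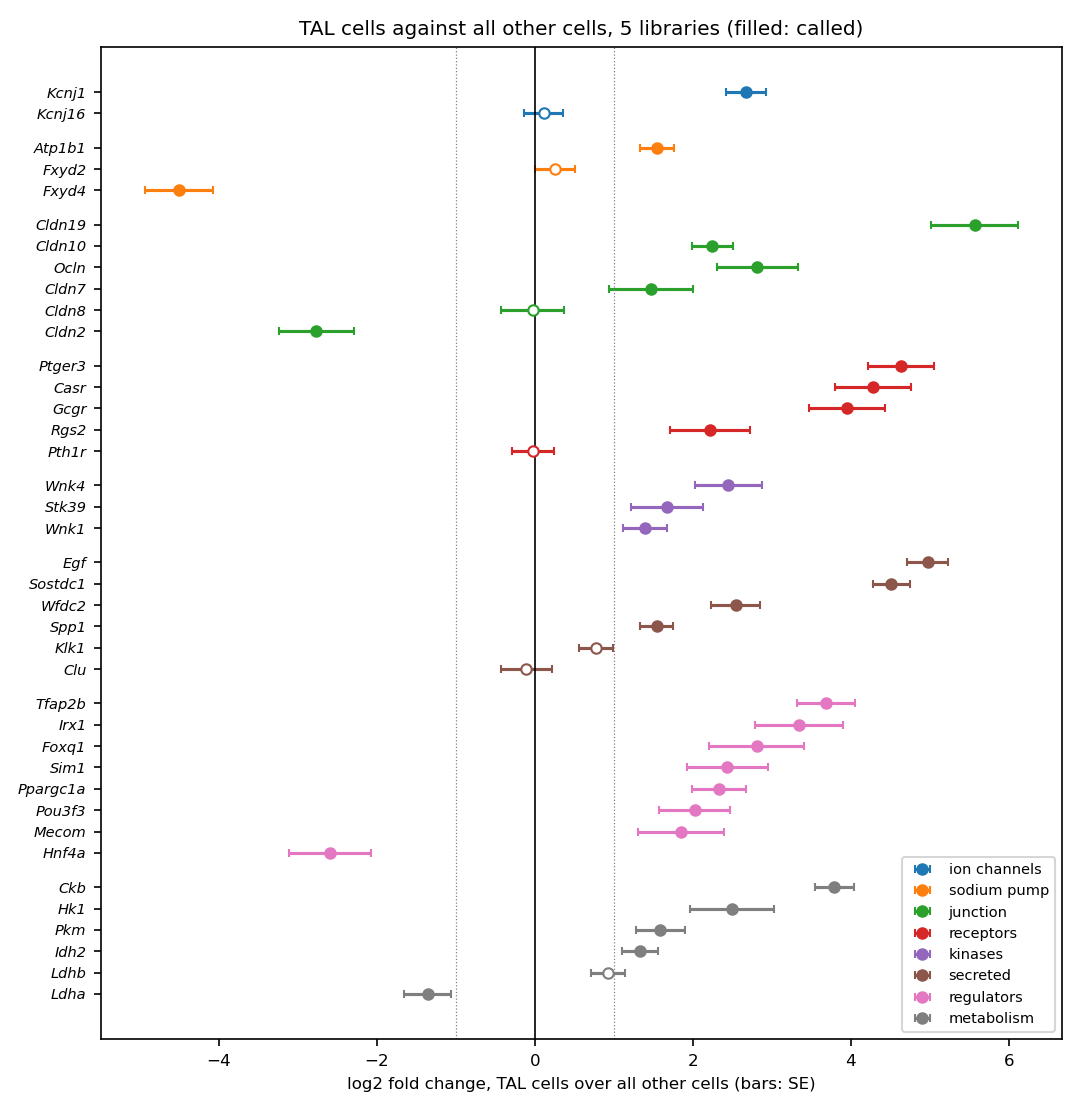
Log2 fold change of TAL cells over all other cells (dots, bars are SE of the fit over 5 libraries), by role; filled dots passed the test and dotted lines mark a log2 value of 1 in either direction. Kcnj1 and most receptors, kinases and regulators lie to the right, while Fxyd4, Cldn2, Hnf4a and Ldha lie to the left at -4.50, -2.76, -2.59 and -1.36.

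Distal convoluted tubule cells, the segment downstream, were gated in the same way on Slc12a3 and Pvalb, giving 80 cells in the 4 libraries with at least 10 such cells (none in the inner medulla). With the 4 gate genes removed, 259 genes were tested, 12 were higher (4.63%) and 11 lower (4.25%) in TAL cells, and the median over all was -0.02. Car15, a membrane-bound carbonic anhydrase, had 173 UMIs in TAL cells and 0 in distal convoluted tubule cells, at least 12.7-fold higher when 3 counts stand for the 0. Cldn10 was 5.44 ± 0.66 higher, with 327 UMIs against 1, and Wfdc2 1.92 ± 0.38. Sostdc1 (1.44 ± 0.27), Egf (1.22 ± 0.23) and Spp1 (1.01 ± 0.23) were higher too; Egf had 96 UMIs in the downstream cells.

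Lower in TAL cells than in distal convoluted tubule cells were Calb1 (calbindin, which carries calcium) at -2.72 ± 0.25, Clu at -2.53 ± 0.40, Defb1, a beta-defensin, at -2.21 ± 0.21, Pgam2, a phosphoglycerate mutase, at -2.20 ± 0.41 and Wnk1 at -1.48 ± 0.34. Genes of salt transport that both segments use did not pass, among them Kcnj1 at -0.64 ± 0.35 and Atp1b1 at 0.25 ± 0.21. Ppp1r1a did not pass either (0.18 ± 0.21). None of 30 tested oxidative phosphorylation genes was called, at a median of -0.14. A value that did not pass does not show equality. Only 10 of the 17 genes named by the rule stayed called under every alternative that tested them; Wnk1, for one, was not called without the cortex or without whole kidney 2, and without whole kidney 2 only 5 genes were lower.

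The 3 comparisons share the same TAL sums, so they are not independent of each other. Principal cells of the collecting duct, another salt-transporting class, were gated on Aqp2 and Hsd11b2 and were present in all 5 libraries (66 to 415 cells). Of 691 genes tested, 64 were higher (9.26%) and 65 lower (9.41%) in TAL cells, with a median over all of -0.07. Gpx6 was 6.90 ± 0.43 higher, Egf 6.78 ± 0.43, Ppp1r1a 6.29 ± 0.43, Cldn10 5.44 ± 0.37 and Plau, the urokinase gene, 5.22 ± 0.44. Fabp3, a fatty acid carrier, was 4.37 ± 0.32 higher and Slc5a3 3.82 ± 0.33. Of 5 tested pump genes 3 were higher, among them Fxyd2 by 2.82 ± 0.36 and Atp1b1 by 1.06 ± 0.31, with edgeR adjusted p-values of 1.2e-05 and 0.015. Kcnj1, which principal cells use to secrete potassium, did not pass (0.47 ± 0.60).

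Of the 32 oxidative phosphorylation genes, 8 were higher and none lower against principal cells, beside 9.26% and 9.41% of all genes tested. Their median was 0.85, beside -0.07 over all genes. Among the 8 were Sdhb and Uqcrc1, subunits of complexes II and III. Idh2 and Fh1 were higher at 1.71 ± 0.29 and 1.69 ± 0.29. Lower in TAL cells were Aqp3 (0 against 1767 UMIs, at least 229-fold), Cav2, a caveolin, at -7.37 ± 0.52, Fxyd4 at -7.35 ± 0.53, Tmsb4x, which binds actin, at -5.28 ± 0.39, Avpr2, the vasopressin V2 receptor, at -4.12 ± 0.38 and Apela at -3.72 ± 0.38. Cldn8 and Cldn7 were lower at -2.41 ± 0.33 and -1.5 ± 0.34, and Calb1 at -1.91 ± 0.30. Without whole kidney 1, 100 genes were higher, of 885 tested. All 24 genes named by the rule stayed called under every alternative that tested them.

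Within the TAL cells, the balance of the selecting genes differed between libraries. In cortex 572 Umod and 201 Slc12a1 UMIs gave 2.85 Umod per Slc12a1 (95% interval 2.42 to 3.36). The ratio was 1.60 (1.46 to 1.77) in the outer medulla, 1.03 (0.853 to 1.25) in the inner medulla, 1.80 (1.49 to 2.17) in whole-kidney library 1 and 2.36 (1.93 to 2.91) in whole-kidney library 2. The 3 regional intervals did not overlap and fell in the order cortex, outer medulla, inner medulla, while those of the whole-kidney libraries overlapped each other. Both genes shaped the rule, so these are descriptions. Barcodes with under 100 genes, which hold free RNA, gave the same order of regions at 2.54, 1.66 and 0.912, and 2.01 and 2.53 in whole kidney. At the stricter gate the ratio was 2.18 in cortex, 0.619 in the inner medulla and 1.28 in whole-kidney library 1.

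By cell, 269 of the 402 TAL cells held more Umod, 100 more Slc12a1 and 33 equal counts, and 335 held both. Cells with more Umod were 51 of 62 in cortex (82.3%), 115 of 185 in the outer medulla (62.2%), 34 of 64 in the inner medulla (53.1%), 31 of 43 in whole-kidney library 1 (72.1%) and 38 of 48 in whole-kidney library 2 (79.2%). Cells with more Slc12a1 were 5 of 62 in cortex (8.06%) and 27 of 64 in the inner medulla (42.2%). To ask whether other genes separated these cells, Umod-rich and Slc12a1-rich cells were summed in the 3 libraries with at least 10 of each, outer medulla, inner medulla and whole kidney 1. Of 248 genes tested with edgeR, none was called in either direction (0%), and 9 had an unadjusted p below 0.05; DESeq2 called none, with 3 below 0.05. The lowest unadjusted p-values belonged to H3f3b at -2.03 ± 0.60 and Tmbim6 at -0.84 ± 0.26, both with edgeR adjusted p = 0.64.

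**Figure D3:**
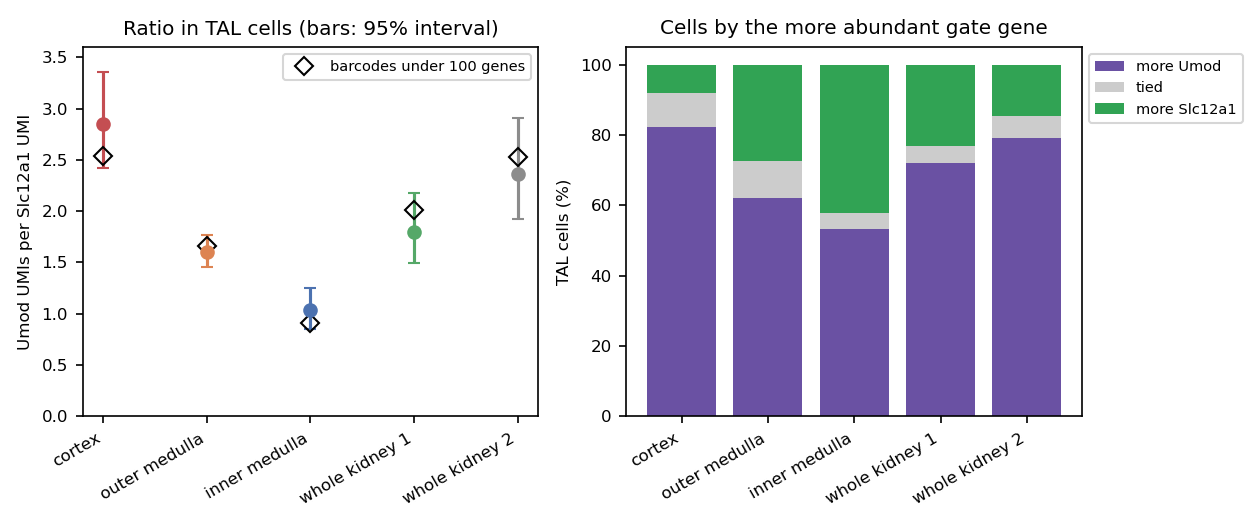
Left, Umod UMIs per Slc12a1 UMI in TAL cells (dots, bars are 95% exact binomial intervals) and in barcodes with under 100 genes (open diamonds), by library; right, the share of TAL cells (%) with more Umod, equal counts or more Slc12a1. The ratio is 2.85 in cortex, 1.60 in the outer medulla and 1.03 in the inner medulla, and the diamonds lie close to the dots.

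Claudin-10 and claudin-16 build different pores, for sodium and for calcium and magnesium, and their transcripts were followed cell by cell. Cldn10 was found in 15 of 62 TAL cells in cortex (24.2%), 91 of 185 in the outer medulla (49.2%), 43 of 64 in the inner medulla (67.2%), 12 of 43 in whole-kidney library 1 (27.9%) and 11 of 48 in whole-kidney library 2 (22.9%). Proximal tubule cells, which use Cldn10 as well, had a UMI in 17.8%, 18.9%, 13.4%, 27.3% and 21.1% of cells at median depths of 450 to 537 UMIs, so in cortex and whole kidney the share of TAL cells with Cldn10 is not far from theirs. Cldn16 was found in 9, 21, 0, 7 and 12 TAL cells in the same order, 14.5%, 11.4%, 0%, 16.3% and 25.0%, against 0 to 0.277% of proximal tubule cells. No inner medullary TAL cell had a Cldn16 UMI, with an upper 95% limit of 5.60% of cells.

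Both claudins occurred together in 7 of 402 TAL cells, with Cldn10 alone in 165, Cldn16 alone in 42 and neither in 188. Cldn16 was held by 0 of 15 cells with Cldn10 and 9 of 47 without it in cortex (0% and 19.1%), by 4 of 91 and 17 of 94 in the outer medulla (4.40% and 18.1%), by 1 of 12 and 6 of 31 in whole-kidney library 1 (8.33% and 19.4%), and by 2 of 11 and 10 of 37 in whole-kidney library 2 (18.2% and 27.0%). The share was lower beside Cldn10 in each of the 4 libraries with Cldn16, and the intervals of the 2 shares overlapped in all but the outer medulla, where they were narrowly apart. After thinning to 300 UMIs, 3 of 294 cells held both. In cortex, 0 of 9 cells with Cldn10 and 1 of 40 without it then held Cldn16. In the outer medulla these were 2 of 61 (0.40% to 11.35%) and 13 of 64 (11.28% to 32.23%), so the intervals there overlapped at equal depth. Cldn19 was found in 51 TAL cells, 14 of them with Cldn16 and 24 with Cldn10. Zero counts at this depth do not show that a gene was off.

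**Figure D4:**
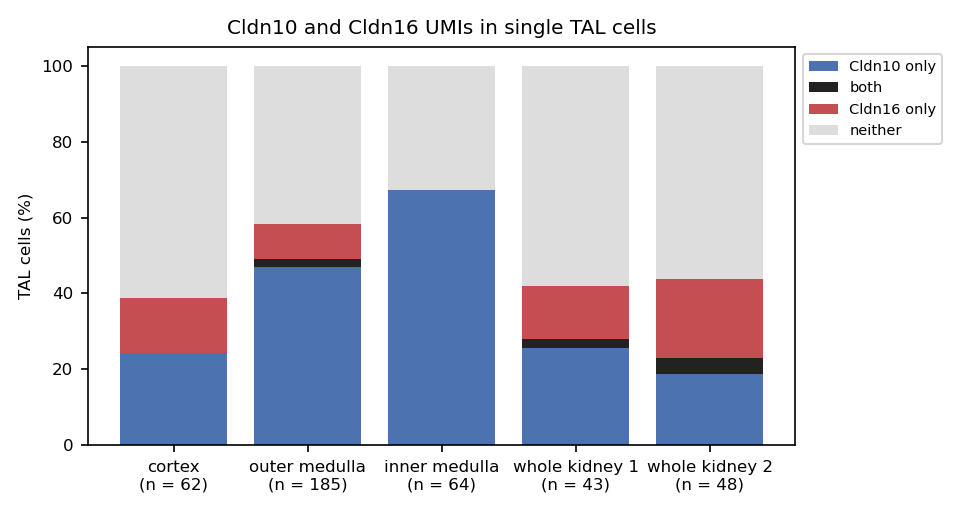
Share of TAL cells (%) with UMIs of Cldn10 only, both claudins, Cldn16 only or neither, by library, with the number of cells under each bar. Cells with both are 7 of 402, and Cldn16 is at 0 in the 64 cells of the inner medulla.

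Cells with Cldn16 and no Cldn10 were then tested against cells with Cldn10 and no Cldn16 in the 4 libraries with at least 5 of each. Of 84 genes tested with edgeR, 1 was higher (1.19%) in the Cldn16 cells and none lower (0%). This was Klk1, at 1.26 ± 0.30 (adjusted p = 0.015), with 19288 against 7290 CPM in cortex, 6458 against 2111 in the outer medulla, 7414 against 3910 in whole-kidney library 1 and 14603 against 6052 in whole-kidney library 2. Klk1 was higher in all 4 libraries, but 1 cell in cortex held 60 of its UMIs and 1 in whole-kidney library 2 held 54. Without these 2 cells, a choice made after seeing the data, Klk1 stood at 0.68 with adjusted p = 0.50, and DESeq2 gave an adjusted p of 0.073. Klk1 also lost its call without each of the 4 libraries in turn (1.06 to 1.36, edgeR adjusted p = 0.068 to 0.28). Car15 (2.18 ± 0.74), Wfdc2 (0.77 ± 0.32) and Egf (0.77 ± 0.32) were higher in value in Cldn16 cells, with edgeR adjusted p-values of 0.26, 0.36 and 0.36. Egf was lower in the Cldn16 cells of cortex, at 5133 against 7290 CPM. Gpx3, from the list of proximal tubule markers, was higher in value too (0.93 ± 0.36, edgeR adjusted p = 0.36). None of these 4 was called.

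Across regions, TAL sums were compared between outer medulla and cortex. With 1 library each, a gene was named by size alone: a level of 100 CPM or more with 30 UMIs or more where it was higher, and a log2 ratio of CPM values plus 10 of at least 1. Among 351 genes that met the level, 23 were higher (6.55%) and 11 lower (3.13%) in the outer medulla, at a median of 0.19; between the 2 whole-kidney libraries the same rule took 3 higher (3%) and 3 lower (3%) of 100. Cldn10 was 2.85-fold higher (exact interval 2.02 to 4.11), at 2976 against 1045 CPM. Ptger3 was 3.35-fold higher (1.51 to 8.77), Ppp1r1b 3.47-fold (1.65 to 8.42) and Tmem207 2.73-fold (1.54 to 5.23). Past the size rule on few UMIs in cortex were Hspa9, the mitochondrial HSP70, at 5.11-fold (1.60 to 26.1) on 32 against 3 UMIs, Cox20, an assembly factor of cytochrome c oxidase, at 4.19-fold (1.5 to 16.2) and Glrx5, a mitochondrial glutaredoxin, at 3.43-fold (1.45 to 9.86). At the stricter gate 6 genes were higher and 2 lower, and the log2 ratio of Cldn10 was 0.51 in place of 1.5 and that of Tmem207 0.47 in place of 1.43.

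Lower in outer medullary than in cortical TAL cells were Tmem52b, at 346 against 1930 CPM (5.57-fold lower), Sfrp1, a secreted WNT antagonist, at 629 against 2064, Pth1r at 308 against 858, Defb1 at 1244 against 3082, Klk1 at 3040 against 7344 and Car15 at 629 against 1394. Pvalb was at 38.5 against 1153; without the 2 cortical cells that also passed the distal convoluted tubule gate, its log2 ratio was -4.22 in place of -4.58. Fth1, ferritin heavy chain, was at 6889 against 18093, but 1 cortical cell held 348 of the 675 UMIs. Without each library's highest cell the log2 ratio of Fth1 was -0.39 in place of -1.39, and at the stricter gate it was 0.11, the opposite direction. Egf, at 3656 against 6835, was 1.87-fold lower (1.57 to 2.22) and short of the size rule. Wnk1 was at 218 against 777, 3.56-fold lower (1.89 to 6.91), on 29 UMIs in cortex. Markers of neighbouring segments were lower in value in the same comparison: all 5 measured of the distal convoluted tubule list (4 with intervals below 1, median log2 ratio -2.21) and all 3 of the connecting tubule list, which includes Klk1 (3 with intervals below 1, median -2.65). Tmem52b, Defb1 and Wnk1 were themselves lower in TAL than in distal convoluted tubule cells, with log2 fold changes of -1.02, -2.21 and -1.48. Of these, only Defb1 stayed called under every alternative that tested it. Tmem52b lost its call with total counts, without the filter on low counts, with DESeq2, and without the outer medulla, whole kidney 1 or whole kidney 2. Wnk1 lost its call without the filter, the cortex or whole kidney 2. The part of distal convoluted tubule cells in the regional result was not tested.

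Between inner and outer medulla, 8 of 307 genes were higher (2.61%) and 36 lower (11.7%) in the inner medulla, at a median of -0.27. Cldn16 and Sfrp1 had 0 UMIs, at least 3.28-fold and 5.36-fold lower when 3 counts stand for each 0. Cldn19 was at 78.1 against 462, Car15 at 39.1 against 629, Klk1 at 469 against 3040, Wfdc2 at 234 against 1373, Tmem213 at 195 against 860 and Egf at 938 against 3656. Pth1r, Wnk1 and Tmem52b, each present in cortex and outer medulla, also had 0 UMIs in 25597. Of the genes higher in the outer medulla than in cortex, Cldn10 was 1.46-fold higher again (1.15 to 1.83), and Ptger3 (1.24-fold, 0.700 to 2.13) and Tmem207 (0.876-fold, 0.525 to 1.41) had intervals that included 1. Fxyd2, the gamma subunit of the pump, was 2.07-fold higher (1.86 to 2.3), at 23636 against 11430, and Cycs, cytochrome c, 2.45-fold (1.54 to 3.86). With TMM factors their log2 ratios were 0.65 and 0.89, both short of the size rule. Atp1b1 was within counting error at 1.00-fold (0.882 to 1.14).

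Across the 3 regions, Egf, Klk1, Tmem52b, Pth1r and Wnk1 were highest in the cortical sum and lowest in the inner medullary sum, and the whole-kidney values of each lay nearer the cortex than the inner medulla. Cldn10, Ptger3 and Ppp1r1b had their lowest regional value in cortex. The proximal tubule markers were at 15117, 14240 and 1719 CPM in TAL cells of cortex, outer medulla and inner medulla. These levels alone do not measure free RNA, since the markers took 10.2%, 9.14% and 1.88% of UMIs in barcodes with under 100 genes. The free share of TAL UMIs estimated from both was 14.9%, 15.6% and 9.12% in the same order. After subtraction of the free-RNA profile the log2 ratio of inner over outer medulla was -2.06 for Egf, -2.65 for Klk1 and 1.09 for Fxyd2. With TMM factors 41 genes were higher in the outer medulla than in cortex and 84 lower in inner than in the outer medulla. Cryab, a small heat shock protein, stood at 1602 CPM in its TAL cells, below the 8484 of the other cells there, and at 218 in the outer medulla; with free RNA subtracted it stood at 884 in the inner medulla. The osmolyte transporter Slc5a3 was at 536, 783, 1133, 603 and 364, against 156 in the other cells of the inner medulla and 10.8 to 29.3 elsewhere.

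**Figure D5:**
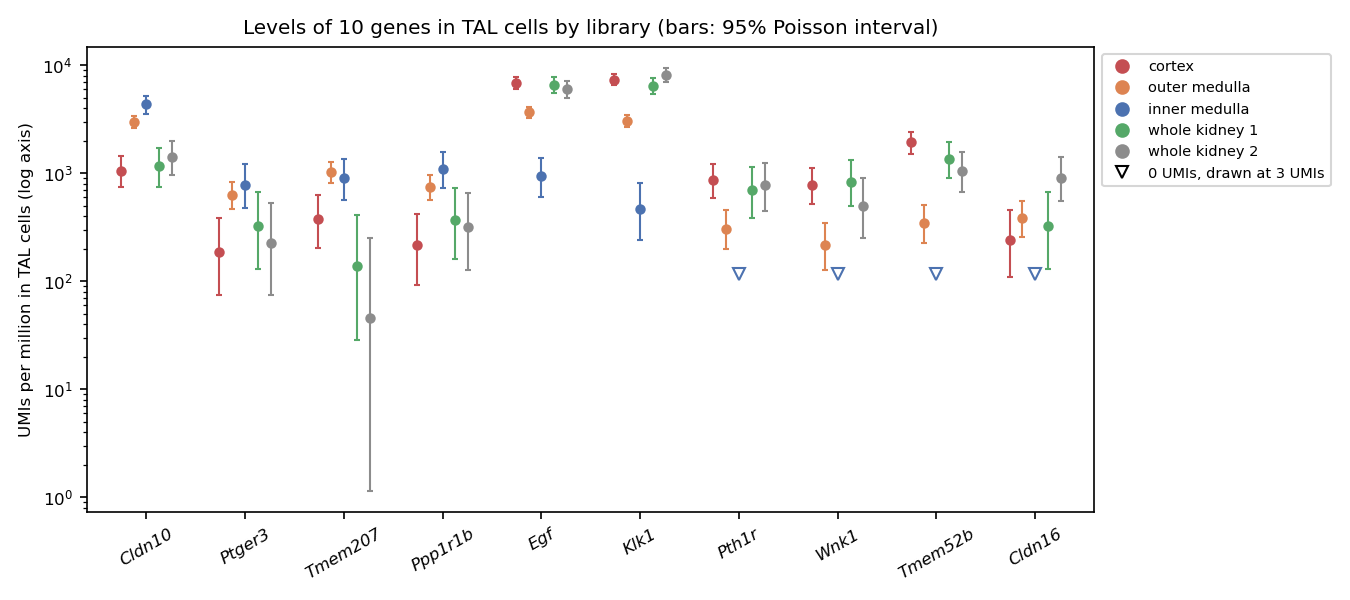
CPM (log axis) in TAL cells of each library for 10 genes of the regional comparison (dots, bars are 95% Poisson intervals; open triangles mark 0 UMIs, drawn at 3 UMIs). Cldn10, Ptger3 and Ppp1r1b have their lowest regional value in cortex, while Egf and Klk1 fall from 6835 and 7344 in cortex to 938 and 469 in the inner medulla.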

How the data were processed

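The authors deposited Drop-seq UMI counts per gene and barcode, 1 table per library, listing 16934 genes; the submitters' processing notes name mm9 and Seurat 2.3.1, with no role given. Aligner, counter and filters: not given in the sources used here. Counts were analysed with Python 3.11.15 and R 4.3.3. Barcodes with at least 200 genes were kept (12121), classes were gated as described, and UMIs were summed per library and class. Classes were compared with edgeR 4.0.16 (quasi-likelihood test, TMM, library as covariate, low counts filtered, Benjamini-Hochberg over all genes tested), tested on simulated data first; DESeq2 1.42.0, other gates, filters and scalings, and each library left out were alternatives. Library is a covariate of the main fits, since both classes come from the same libraries.

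TAL UMIs per library ranged from 21570 to 77951, so that 3 UMIs correspond to 38.5 to 139 CPM. The labels do not say which libraries are separate animals, so p-values measure the spread between these libraries. Named genes are up to 12 per direction with the largest log2 fold change among called genes that moved the same way in every library, with at least 50 UMIs, plus members of 25 lists; for regions, up to 8 per direction past the size rule at no less than 0.5 times the level of the other cells. The cells, lists and tests were chosen with earlier results of these data known. Sequences come from RefSeq on GRCm38.p6. No doublet caller was run. Some genes of the lists and comparisons are not reported here.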

Additional observations from a re-analysis of the deposited data

Results flagged for a closer look

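For 7 genes among those on the lists or named by size, TAL cells stood above the other cells in every library of 1 or more groups and below them in every library of another, with intervals on opposite sides of 1; these differences between groups were not tested. Values are the fold of TAL over other cells in CPM (UMIs per 1000000). In the inner medulla, 415 of the 834 other cells passed the principal cell gate.

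Several of these folds rest on few UMIs and have wide intervals. Foxq1, a forkhead factor, was at 21.3-fold (6.98 to 55.6) in cortex and 10.7 (3.98 to 26.6) in the outer medulla. It was at 25.6 (9.26 to 61.5) in whole-kidney library 1, 38.4 (11.1 to 108) in whole-kidney library 2 and 0.145 (0.00365 to 0.824) in the inner medulla. Wfdc2 was at 9.48, 9.08, 11.8 and 12.4 in the same libraries and at 0.414 in the inner medulla. Cldn8 was at 4.50 in cortex and 1.94 in the outer medulla, and at 0.272 in the inner medulla. Apela was at 4.36 in whole-kidney library 1 and 4.79 in whole-kidney library 2, and at 0.270 in the inner medulla.

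Cox20 was at 1.57 in the outer medulla and 2.57 in the inner medulla, and at 0.330 in cortex. Iah1 was at 2.79 in the inner medulla and 0.294 in cortex. Fth1 was at 1.33 in cortex and 1.27 in the inner medulla, and at 0.517 in the outer medulla, 0.565 in whole-kidney library 1 and 0.546 in whole-kidney library 2; 1 cell held 348 of its 675 cortical UMIs.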

How the results depend on the processing

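The numbers of genes tested differ between the fits, so counts are given with them. Genes higher in TAL than in all other cells numbered 129 of 3705 at the stricter gate and 83 of 2704 without proximal tubule cells, beside 256 of 4223 in the main fit. Lower genes numbered 115 of 2704 without proximal tubule cells and 1076 of 16136 without the filter on low counts, beside 492 of 4223. With a library left out, 177 to 298 were higher and 399 to 833 lower, of 4205 to 7124 tested. Against distal convoluted tubule cells, 31 were higher and 5 lower of 10344 without the filter, beside 12 and 11 of 259 in the main fit. DESeq2 called 7 lower of 259. With a library left out, edgeR called 9 to 14 higher and 5 to 12 lower, of 257 to 276 tested. Against principal cells, 31 were higher and 35 lower of 244 at the stricter gate, and 145 and 305 of 12782 without the filter. The main fit had 64 and 65 of 691 (55 to 100 and 59 to 97 with a library left out). The single call for Cldn16 cells went to 0 without cells of 50 or more Klk1 UMIs, without the filter and with DESeq2. It also went to 0 without the cortex and without whole kidney 1. Without the outer medulla or without whole kidney 2, 1 gene was called, but it was not Klk1.

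The TAL share at the stricter gate was 0.781% in cortex, 3.67% in the outer medulla, 2.34% in the inner medulla, 0.786% in whole-kidney library 1 and 0.605% in whole-kidney library 2. With at least 300 genes it was 4.87% in the outer medulla, 3.69% in the inner medulla and 0.992% in whole-kidney library 2, with a gate on Slc12a1 alone 1.27% in cortex, 5.97% in the outer medulla, 1.12% in whole-kidney library 1 and 0.908% in whole-kidney library 2, and after thinning 6.45% in the outer medulla and 1.95% in whole-kidney library 2. Umod per Slc12a1 at the stricter gate was 2.18 in cortex, 0.619 in the inner medulla and 1.28 in whole-kidney library 1. After thinning, Cldn16 was held by 2.5% of cortical cells without Cldn10 and by 0% of whole kidney 1 cells with it.

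Of outer medulla over cortex, 6 genes were higher and 2 lower at the stricter gate, 41 higher with TMM factors and 7 lower without each gene's highest cell. Of inner over outer medulla, 1 was higher at the stricter gate, 2 with TMM factors, 5 with free RNA subtracted and 5 without each gene's highest cell, and 84 lower with TMM factors. The log2 ratio of Fth1 in the outer medulla over cortex turned to 0.11 at the stricter gate. Where no cause is given in the report, the cause was not tested. For single genes, 917 values counted as unchanged, 28 lost their call, 21 moved and 1 reversed. Unchanged means that a tested gene stayed called in its direction, or that a regional ratio stayed within the exact interval of the main value. Such a regional ratio could still fall short of the size rule or change sign. With TMM factors, the log2 ratio of inner over outer medulla was 0.89 for Cycs and -0.08 for Ptger3, and both counted as unchanged. The alternatives that leave out cells of 50 or more Klk1 UMIs, the distal convoluted tubule gate's cells or each gene's highest cell, and those of Umod per Slc12a1, were chosen after seeing the data. The stricter gate and 300 genes could not be fitted for distal convoluted tubule cells or for Umod-rich cells, with fewer than 3 libraries left.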

Other observations

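Cldn16 and Tmem207 are neighbours on chromosome 16 in RefSeq on GRCm38.p6, at 26463135 to 26482765 and 26503793 to 26526771. Both were higher in value in the outer medulla than in cortex, and they parted in the inner medulla and in the whole-kidney libraries. Cldn16 stood at 241 CPM in cortex, 385 in the outer medulla, 0 in the inner medulla, 325 in whole-kidney library 1 and 911 in whole-kidney library 2. Tmem207 stood at 375, 1026, 899, 139 and 45.5 in the same order, and was thus present in the inner medulla where Cldn16 had no UMI. In whole kidney 2, Tmem207 rests on 1 UMI and Cldn16 on 20. These are values of 1 library each, with no test.

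Single cells held large parts of some genes' counts. In cortex, 1 TAL cell held 39 of the 56 UMIs of S100g, which encodes a calcium-binding protein of the connecting tubule, and in whole-kidney library 2, 1 cell held 27 of 36.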
